A study of Mus musculus with 10 samples.

Results

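The angiopoietins and Tie receptors were followed here as 5 genes: the secreted ligands Angpt1 and Angpt2, the receptor Tek (also called Tie2), the related receptor Tie1, and Ptprb, a receptor-type phosphatase of endothelial cells that removes phosphate from Tek. They were chosen by gene symbol, from the transcript cluster annotated to that symbol alone, and are 5 of the 30063 genes that have such a cluster in the table. Each of the 5 has 1 cluster, and all 5 passed the filter on low values and were tested with 23255 genes in all.

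Total RNA of mouse retina (strain C57BL/6JJmsSlc) was measured on 10 Affymetrix whole-transcript arrays, 2 in each of 5 groups. Untreated retina was taken at postnatal day 7 and at day 17. The other 3 groups were day 17 retinas with oxygen-induced retinopathy (OIR), from mice kept in 75% oxygen for 5 days from day 7 and then in room air. In this model vessels regress in oxygen and grow back abnormally in air. One OIR group was not injected, one received phosphate-buffered saline (PBS) and one received the inhibitor ISOX DUAL, both into the vitreous when the mice left oxygen. The labels give neither a dose nor a target for the inhibitor, nor whether the 2 arrays of a group stand for different mice. The p-values thus reflect array-to-array spread alone, and that spread may be technical.

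ANGPT1, made by cells around vessels, activates TEK on endothelial cells and keeps vessels quiet and tight. ANGPT2, which endothelial cells store and release, competes for the same receptor, and can block or weakly activate it depending on the setting. TIE1 binds neither ligand strongly and modulates TEK, and in the retina ANGPT2 is also known from horizontal cells.

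Values are log2 levels as deposited, and differences are log2 differences with the standard error (SE) of the limma fit over all 10 arrays. A gene was called when its Benjamini-Hochberg adjusted p over all tested genes was below 0.05. None of the 5 genes exceeded the 95th percentile of an array's negative control probes on any array, as 8.00% to 9.97% of transcript clusters did. The negative control medians were 5.83 to 6.11. No fold is given where the lower group lay below that median on both arrays, and levels of different genes are not compared, since each rests on its own probes. In whole retina, fewer cells of a type and less RNA per cell cannot be told apart.

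**Figure D1:**
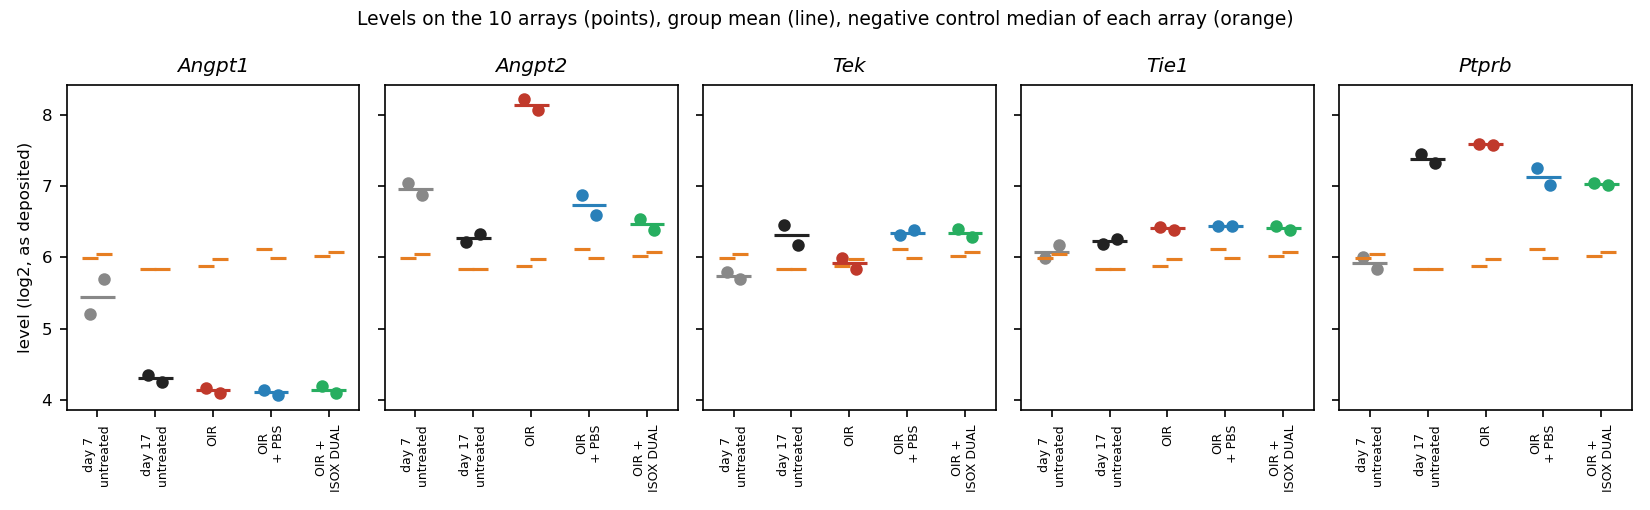
Log2 level of each of the 5 genes on each of the 10 arrays, by group, with 1 point per array. Angpt2 stood at 8.22 and 8.07 on the uninjected OIR arrays and at or below 7.04 on the other 8.

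Angpt2 was the one gene of the 5 that was called in OIR against untreated day 17 retina, and it was higher. Its level was 6.22 and 6.33 in untreated day 17 retina and 8.22 and 8.07 in uninjected OIR retina. The OIR arrays stood above all 8 others. The difference was 1.87 ± 0.13 (95% interval 1.57 to 2.17), a 3.65-fold rise, with a limma adjusted p of 0.00526. By p, Angpt2 ranked 2 among the tested genes. In this comparison 1 of the 5 genes was called, higher in OIR, against 0.495% of all tested genes (0.456% higher and 0.0387% lower). The call was lost without the first (1.81, adjusted p = 0.0504) or the second (1.92, adjusted p = 0.063) untreated day 17 array. On the OIR arrays Angpt2 exceeded 93.6% and 92.3% of the negative control probes, and on the untreated day 17 arrays 58.7% and 62.7%.

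Angpt1 lay below the negative control median on all 10 arrays, so its values have no clear signal behind them. It read 4.35 and 4.25 in untreated day 17 retina and 4.17 and 4.09 in OIR, a difference of -0.17 ± 0.15 (limma adjusted p = 0.999).

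Tek and Tie1 were not called in OIR. Tek read 6.45 and 6.17 in untreated day 17 retina and 5.99 and 5.84 in OIR, without overlap, a difference of -0.40 ± 0.12 (limma adjusted p = 0.462). Tie1 read 6.19 and 6.26 and then 6.43 and 6.39, a difference of 0.18 ± 0.09 (limma adjusted p = 0.943). The estimates for the receptors lay on opposite sides of 0, and the difference between them was not tested. With arrays centred on the endothelial markers described further on, Tie1 and Ptprb changed sign. Ptprb read 7.45 and 7.32 in untreated day 17 retina and 7.59 and 7.58 in OIR, a difference of 0.20 ± 0.11 (limma adjusted p = 0.995). The groups did not overlap for any of the 5 genes, with 3 higher and 2 lower in OIR, against 28.4% of all tested genes without overlap (9.44% higher and 19% lower).

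**Figure D2:**
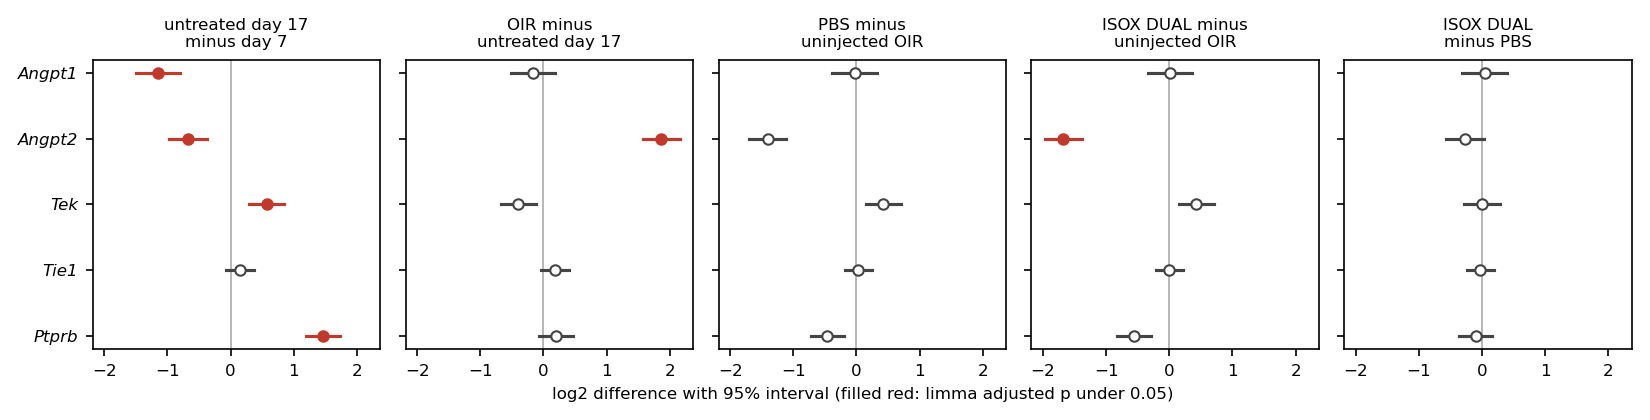
Log2 difference of each of the 5 genes in 5 comparisons, with the 95% interval of the limma fit, filled red where the adjusted p was below 0.05. In uninjected OIR against untreated day 17 the interval of Angpt2 runs from 1.57 to 2.17.

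Injection of PBS came with a lower Angpt2 level, which did not pass the test. Angpt2 read 6.88 and 6.6 after PBS, below both uninjected OIR arrays, a difference of -1.41 ± 0.13 (limma adjusted p = 0.088). Angpt2 ranked 1 by p in this comparison, in which 0% of the tested genes were called and 997 genes, 3 of these 5 among them, had an unadjusted p under 0.05. Tek read 6.31 and 6.38 after PBS, a difference of 0.43 ± 0.12 (limma adjusted p = 0.83). Ptprb read 7.25 and 7.01, a difference of -0.46 ± 0.11 (limma adjusted p = 0.659). Neither Tie1, at 6.44 on both PBS arrays, nor Angpt1, at 4.14 and 4.07, was called.

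After ISOX DUAL, Angpt2 fell against uninjected OIR. It read 6.54 and 6.39, below both uninjected OIR arrays, a difference of -1.68 ± 0.13 and a 3.2-fold fall (limma adjusted p = 0.0339). It was the only gene called, 1 of the 5 and 0.0043% of all tested genes. The call was lost on leaving out any 1 of the 10 arrays, with differences of -1.75 to -1.6 and adjusted p-values of 0.055 to 0.786. Tek read 6.4 and 6.28, a difference of 0.43 ± 0.12 (limma adjusted p = 0.84), and Ptprb 7.04 and 7.01, a difference of -0.56 ± 0.11 (limma adjusted p = 0.413). Tie1 read 6.44 and 6.38 and Angpt1 4.19 and 4.09, and neither was called. Both comparisons use the same uninjected OIR arrays. The second ISOX DUAL array carried a mean of 8.15 over 10 lens genes, against 5.67 to 6.33 on the other 9 arrays. Without that array the Angpt2 difference was -1.6, and without the first ISOX DUAL array -1.75. The part of the lens signal in these differences was not tested.

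Against PBS, the direct comparison for the inhibitor, none of the 5 genes was called after ISOX DUAL. limma called 0% of the tested genes, 237 genes had an unadjusted p under 0.05, and none of the 5 was among them. The Angpt2 difference was -0.27 ± 0.13, with an interval of -0.57 to 0.02 (limma adjusted p = 1). Tek (-0.28 to 0.28), Tie1 (-0.25 to 0.18), Ptprb (-0.37 to 0.16) and Angpt1 (-0.31 to 0.39) had intervals on both sides of 0. These p-values do not show that the inhibitor and PBS act alike.

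Set against untreated day 17 retina, the Angpt2 difference was positive in each injected group and did not pass the test. The difference was 0.46 ± 0.13 after PBS, with an interval of 0.17 to 0.76 (limma adjusted p = 0.537). After ISOX DUAL it was 0.19 ± 0.13, with an interval of -0.11 to 0.49 (limma adjusted p = 0.696). These are 24.8% and 10.2% of the rise in uninjected OIR, given as arithmetic on group means without a test. limma called 0% of the tested genes after PBS and 0.0172% after ISOX DUAL, none of the 5 among them. At an unadjusted p under 0.05 there were 2126 genes after PBS, Angpt2 among them, and 1967 after ISOX DUAL, Ptprb among them. Ptprb was below the untreated level after both, by -0.26 ± 0.11 (limma adjusted p = 0.544) and -0.36 ± 0.11 (limma adjusted p = 0.443). Tie1 had positive differences after both, 0.21 ± 0.09 (limma adjusted p = 0.544) and 0.18 ± 0.09 (limma adjusted p = 0.644).

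Between day 7 and day 17, limma called 4 of the 5 genes, 2 up and 2 down, against 10.6% of all tested genes (5.26% up and 5.29% down). One of the 4, Angpt1, lay below the negative control median at both ages. Ptprb rose from 6.01 and 5.83 to 7.45 and 7.32, a difference of 1.46 ± 0.11 (limma adjusted p = 0.000441). Its day 7 arrays stood at the negative control median, above 50.5% and 43.9% of those probes, so no fold is given. Tek rose from 5.79 and 5.69 by 0.57 ± 0.12 (limma adjusted p = 0.0223). Its day 7 arrays lay below the negative control median, above 45.2% and 40.8% of those probes, so no fold is given. Angpt2 fell from 7.04 and 6.87 by 0.68 ± 0.13, a 1.6-fold fall (limma adjusted p = 0.0146). Angpt1 read 5.21 and 5.69 at day 7, and its difference of -1.15 ± 0.15 (limma adjusted p = 0.00348) is no exact size. Tie1 differed by 0.15 ± 0.09 (limma adjusted p = 0.417). The Angpt2 call was lost without the first day 7 array (-0.59, adjusted p = 0.0629) or the first day 17 array (-0.62, adjusted p = 0.0733). The Tek call was lost without the second day 7 array (0.52, adjusted p = 0.0985) or the first day 17 array (0.43, adjusted p = 0.0937). Between the same ages 5 of 6 rod genes were called higher (median 1.74), as were 3 of 13 endothelial genes, with 1 lower (mean difference 0.36), and 3 of 12 pericyte and smooth muscle genes. With arrays centred on the endothelial genes, as described further on, Angpt2 differed by -1.04 and Ptprb by 1.10. The part of these cell types in the differences was not tested.

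Uninjected OIR retina was also set against day 7, when retinal vessels still grow. Angpt2 was higher by 1.19 ± 0.13 (limma adjusted p = 0.00151) and Ptprb by 1.66 ± 0.11 (limma adjusted p = 0.000276). Angpt1, below the negative control median in both groups, differed by -1.32 ± 0.15 (limma adjusted p = 0.00202), which is no exact size. In this comparison 3 of the 5 genes were called, 2 higher and 1 lower, against 9.9% of all tested genes (5.38% higher and 4.52% lower). Tek (0.17 ± 0.12, limma adjusted p = 0.502) and Tie1 (0.33 ± 0.09, limma adjusted p = 0.0661) did not pass. In the same comparison 9 of 13 endothelial genes were called higher and 1 lower (mean difference 0.79), 7 of 12 pericyte and smooth muscle genes were called higher, and so were 4 of 6 rod genes (median 1.53). Centred on the endothelial genes, Angpt2 differed by 0.40 (adjusted p = 0.0168) and Ptprb by 0.88 (adjusted p = 0.000446). In this comparison the centring shifted the median of all genes from -0.04 to -0.83 and called 20604 genes. A call under it thus says little about a single gene.

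Vessel markers are given beside these genes. The mean of 13 endothelial genes was 6.80 and 6.71 in untreated day 17 retina, 7.26 and 7.10 in uninjected OIR, 6.98 and 6.87 after PBS and 6.90 and 6.80 after ISOX DUAL. In OIR against untreated day 17 the 13 genes had a median difference of 0.38, from -0.07 to 1.09, beside -0.04 over all tested genes. The largest was that of Emcn, with an SE of 0.51 and overlapping groups. Eng had the smallest p, at 0.84 ± 0.16 (limma adjusted p = 0.116). None of the 13 was called by limma and 7 had an unadjusted p under 0.05, as did 1419 of all tested genes (6.1%). The Angpt2 difference exceeded the endothelial mean difference of 0.42 by 1.45. When every array was instead centred on the endothelial mean, a setting chosen after the data were seen, Tek was called lower in OIR (-0.82, adjusted p = 0.0296), Angpt1 also (-0.59, adjusted p = 0.0308), and Tie1 (-0.24) and Ptprb (-0.22) changed sign. That setting shifted the median of all genes from -0.04 to -0.46 and called 11605 genes. Against day 7 it moved Tek to 0.21 (adjusted p = 0.215) in untreated day 17 retina.

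Pericyte and smooth muscle genes (12 tested) had a median difference of 0.14 in OIR, from -0.11 to 1.76, and none was called by limma. Acta2, a smooth muscle actin, had the largest, 1.76 ± 0.40 (limma adjusted p = 0.204). Smallest in p were Rgs5, at 0.96 ± 0.17 (limma adjusted p = 0.0759), and Abcc9, at 0.63 ± 0.12 (limma adjusted p = 0.0889). Horizontal cell genes (9 tested), from the other retinal cell known for Angpt2, had a median of -0.13, from -0.54 to 0.19, and none was called. Unadjusted p-values under 0.05 were found for 5 pericyte and smooth muscle genes and 1 horizontal cell gene. All 8 pigment epithelium genes had negative differences in OIR, with a median of -0.72, none called by limma and 3 with an unadjusted p under 0.05, and 6 rod genes had a median of -0.09. The part of these cell types in the Angpt2 difference was not tested.

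**Figure D3:**
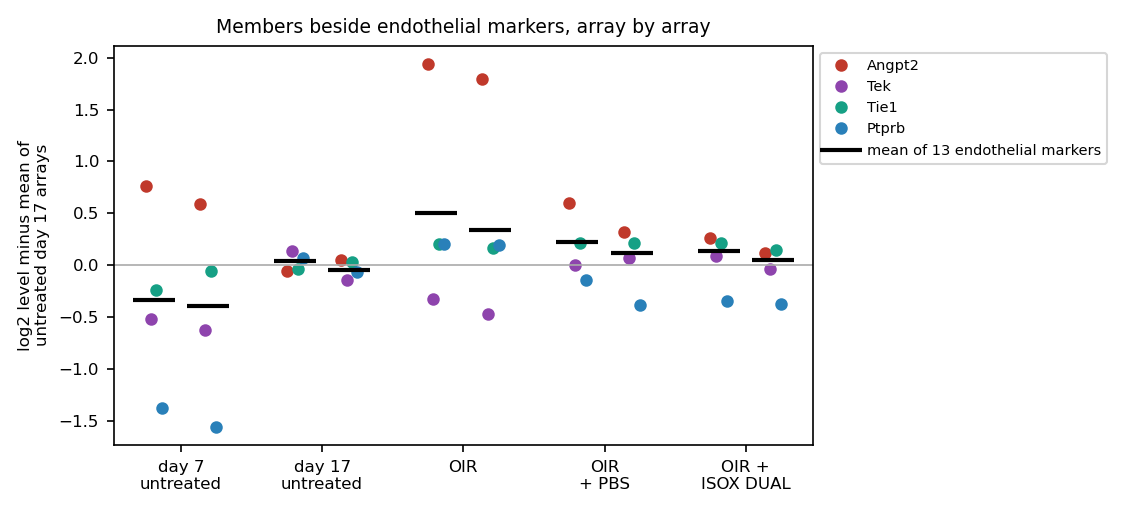
Log2 level on each array minus the mean of the untreated day 17 arrays, for 4 of the 5 genes (Angpt1 left out), with the mean of 13 endothelial genes as a bar. On the uninjected OIR arrays Angpt2 stands above the endothelial mean and Tek below it.

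Among genes that act with the receptors, 2 were called in OIR, where 0.495% of all tested genes were called. Tnip2, which binds TEK and restrains inflammatory signalling, read 6.44 and 6.51 in untreated day 17 retina and 7.23 and 7.35 in OIR, a difference of 0.82 ± 0.11 (limma adjusted p = 0.0322). It was 1 of 13 tested adaptors and effectors, whose median was -0.01. Itgb1, the integrin beta subunit that pairs with many alpha subunits, read 8.30 and 8.31 and then 9.18 and 8.99, a difference of 0.78 ± 0.10 (limma adjusted p = 0.0241). It was 1 of 9 regulators and partners, whose median was 0.43. Pecam1 and Cdh5 of this list also belong to the 13 endothelial genes. Leaving out 1 array gave adjusted p-values of 0.0396 to 0.223 for Tnip2 and 0.0396 to 0.167 for Itgb1, and both calls were lost for 8 of the 10 arrays. Array weights ended both calls (adjusted p = 0.109 for Tnip2 and 0.0995 for Itgb1). Endothelial centring moved Tnip2 to 0.39 (adjusted p = 0.0554) and Itgb1 to 0.36 (adjusted p = 0.0387).

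Other partners had positive differences in OIR that did not pass: Itgav 0.60 ± 0.12 (limma adjusted p = 0.139), Itga5 0.43 ± 0.10 (limma adjusted p = 0.243) and Pecam1 0.54 ± 0.15 (limma adjusted p = 0.354). Of 6 transcription factors known to act on Angpt2, none was called by limma and 1 had an unadjusted p under 0.05. This was Ets1, at 0.77 ± 0.13 (limma adjusted p = 0.0577). The RNA differences of Foxo1 (-0.04), Hif1a (-0.11) and Epas1 (0.10) had intervals on both sides of 0. These ran from -0.58 to 0.50 for Foxo1, from -0.40 to 0.18 for Hif1a and from -0.27 to 0.48 for Epas1. None of the 6 tested angiopoietin relatives was called and none had an unadjusted p under 0.05, with differences of -0.20 (Angpt4) to 0.09 (Angptl4). Between the days, limma called 1 of 13 adaptors and effectors higher at day 17 (Tnip2) and 2 lower (Pik3r1 and Akt1). Of 9 regulators and partners, 2 were called higher (Itgav and Pecam1) and 2 lower (Itgb1 and Itgb5). Epas1 was called higher, as 1 of the 6 transcription factors. The share over all tested genes was 10.6%. Pik3r1, a regulatory subunit of phosphoinositide 3-kinase, fell by 1.53 ± 0.12 (limma adjusted p = 0.000477) and Epas1 rose by 1.24 ± 0.16 (limma adjusted p = 0.00331). Array weights ended all these list calls but those of Pik3r1 and Epas1. Quantile normalization ended those of Akt1, Itgav, Itgb5 and Pecam1 (limma adjusted p = 0.053 to 0.0627). Leaving out 1 array gave differences of -0.79 to -0.37 for Akt1, 0.34 to 0.62 for Itgav and -0.73 to -0.38 for Itgb5. For Pecam1 they were 0.48 to 0.76, for Tnip2 0.41 to 0.64 and for Itgb1 -0.53 to -0.48.

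**Figure D4:**
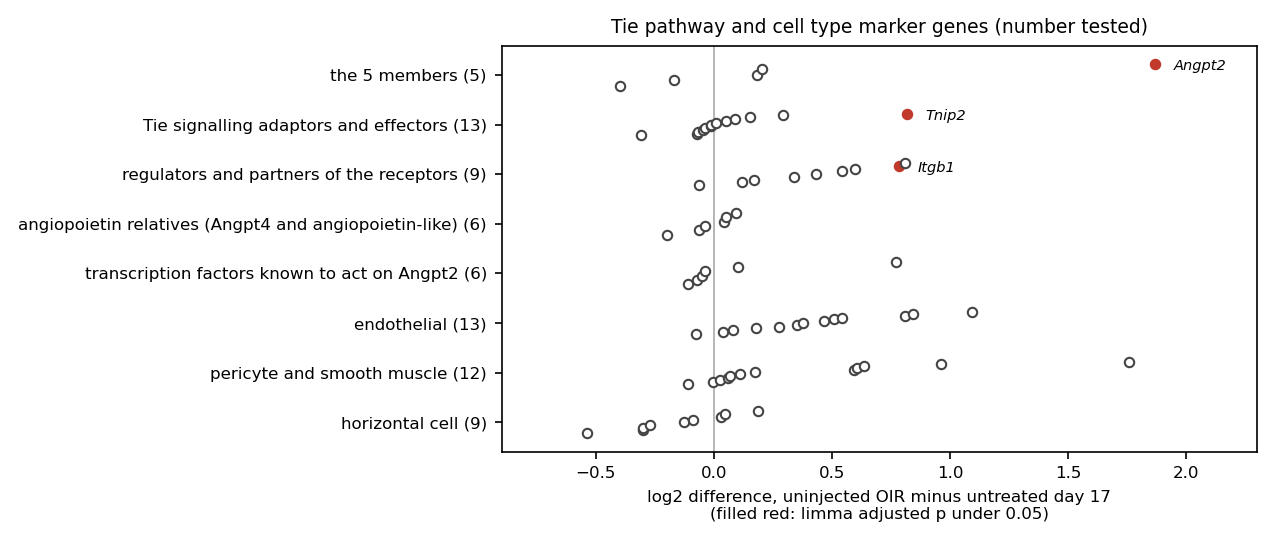
Log2 difference between uninjected OIR and untreated day 17 for each tested gene of the pathway and marker lists, 1 point per gene, filled red where the limma adjusted p was below 0.05. Angpt2 (1.87), Tnip2 (0.82) and Itgb1 (0.78) are the filled points.

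With predicted genes left out of every ranking, those most like Angpt2 across the 10 arrays, by Pearson's r, were Triobp (0.973), Spidr (0.966), Nox4 (0.953), Armh4 (0.95) and Sema6d (0.949). These points share arrays and are given as a description. Spidr read 6.11 and 5.96 in untreated day 17 retina and 7.72 and 7.52 in OIR. Nox4, an NADPH oxidase, read 4.55 and 4.45 and then 5.76 and 5.57. Like Angpt1, it lay below the negative control median on all 10 arrays, so its values have no clear signal behind them. The genes most like Tie1 were H2-Q4 (0.973) and Mmrn2 (0.971), a matrix protein of endothelial cells. Those most like the other 3 were Tgm4 for Ptprb (0.988), Vti1a for Tek (0.948) and Accs for Angpt1 (0.993).

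Upstream sequence was matched for 2 of the 5 genes, Tek and Tie1, in RefSeq (GRCm38.p6). Tie1 is shown because its 250 bases before the start, chr4:118489850-118490099 on the minus strand, lie outside the annotated span of Tie1. For Tek, 203 of the 250 bases lie inside its own annotated span. Overlap with other genes was not checked. Capitals mark matches to the ETS cores CGGAAG and AGGAAG, the second on the opposite strand as CTTCCT.
Tie1: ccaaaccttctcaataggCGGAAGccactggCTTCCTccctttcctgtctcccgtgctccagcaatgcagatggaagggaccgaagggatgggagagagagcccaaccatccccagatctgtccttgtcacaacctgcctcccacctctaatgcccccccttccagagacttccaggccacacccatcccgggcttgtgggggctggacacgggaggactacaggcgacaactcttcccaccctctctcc
The first bases of the matches lie 232 and 219 bases before the start. Of 32851 promoters of that length, 13.6% hold CGGAAG and 29.5% hold AGGAAG on either strand. Neither window held the hypoxia response core ACGTG or its variant GCGTG, the forkhead motif GTAAACA or the GATA motif AGATAA on either strand, and the Tek window held none of the 6 motifs. Of all promoters, 16.6%, 28.2%, 3.17% and 9.99% hold these 4 motifs in that order. No binding was measured here, and a match is only a description of letters.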

How the data were processed

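The authors deposited log2 values, 1 for each array and transcript cluster. That the scale is log2 was inferred from their range, 0.78 to 13.67. No further normalization was applied; for the original software, normalization and build, the sources used here give nothing. Symbols follow RefSeq (GRCm38.p6). A gene was tested when 2 or more arrays exceeded their own 30th percentile of all transcript clusters. This filter was first set on the 30th percentile of gene values (21764 genes) and was changed, with results in view, to match an earlier analysis of these data. limma 3.58.1 (R 4.3.3; lmFit, eBayes, no trend) was fitted on the 10 arrays together, with 5 residual and 2.76 prior degrees of freedom and Benjamini-Hochberg adjustment. The script was tested on simulated data. The 5 genes, the lists and the motifs were chosen with earlier results of these data known. Named besides the 5 were list genes past the threshold or among the 4 of smallest p in OIR. Some of the 5 genes of highest r with each were named too, with predicted genes left out by their names. Foxo1 and Emcn were named for their place in a list after their values were seen.

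Alternatives covered normalization, filter, array weights, trend, replicate block, endothelial centring and leaving out arrays.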

Additional observations from a re-analysis of the deposited data

How the results depend on the processing

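Of the alternatives to the differences of the 5 genes, 804 kept the direction and the side of the threshold, 26 lost a call, 5 gained one with the same sign and 27 changed sign, 2 of which also gained a call. With only the 4 arrays compared, Angpt2 lost its calls in OIR (1.87, adjusted p = 0.156), after ISOX DUAL (-1.68, adjusted p = 0.361) and between the days (-0.68, adjusted p = 0.125), as did Tek (0.57, adjusted p = 0.21) and Angpt1 (-1.15, adjusted p = 0.0717) between the days and Angpt1 in OIR against day 7 (-1.32, adjusted p = 0.0577). Such fits have fewer arrays to estimate the spread. Array weights ended the calls between the days for Angpt2 (-0.68, adjusted p = 0.119) and Tek (0.57, adjusted p = 0.105). Without both day 7 arrays, Angpt2 after ISOX DUAL was -1.68 (adjusted p = 0.106). A replicate block brought Angpt2 after PBS past the threshold (-1.41, adjusted p = 0.0455), as did a block with the injected groups' numbers crossed, chosen after the data were seen (-1.41, adjusted p = 0.0323). The numbers are not shown to pair the arrays: across genes, differences between first and second arrays correlated at 0.583, 0.809 and 0.587 among the uninjected groups and 0.399 between the injected groups, but at -0.0567 to -0.406 across the kinds. Quantile normalization called Tie1 in OIR against day 7 (0.31, adjusted p = 0.0481).

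Leaving out 1 array gave Angpt2 differences of 1.79 to 1.94 in OIR, -1.75 to -1.6 after ISOX DUAL and -0.77 to -0.59 between the days, and 0.43 to 0.71 for Tek between the days. It turned the sign of uncalled differences near 0. Against uninjected OIR these were Angpt1 after PBS (-0.07 to 0.01) and after ISOX DUAL (-0.04 to 0.06), and Tie1 after ISOX DUAL (-0.03 to 0.03). Between ISOX DUAL and PBS they were Angpt1 (-0.01 to 0.09), Tek (-0.06 to 0.06), Tie1 (-0.06 to 0) and Ptprb (-0.22 to 0.02). Against untreated day 17, Tek ran from -0.11 to 0.17 after PBS and after ISOX DUAL. Among list genes near 0 in OIR, Akt1 (-0.06 to 0.37), Angptl8 (-0.03 to 0.12) and Gata2 (-0.2 to 0.05) did so too. Median centring moved Tie1 after ISOX DUAL to 0.01.

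Centring each array on the endothelial mean was added after the data were seen, dropped after its result was seen, and restored here. Besides the values given with the markers, it changed the sign of Angpt1 after PBS against OIR (0.22), Tie1 after ISOX DUAL against OIR (0.33), Tek (0.08) and Tie1 (0.05) between ISOX DUAL and PBS, Tek against untreated day 17 after PBS (-0.14) and ISOX DUAL (-0.06), and Tie1 between the days (-0.21). In OIR against untreated day 17, Shc1 (-0.13), Akt1 (-0.27), Angptl4 (-0.33), Angptl8 (-0.38) and Epas1 (-0.32) also changed sign. In OIR against day 7 Tek (-0.61, adjusted p = 0.00195) and Tie1 (-0.45, adjusted p = 0.0119) were then called lower. These calls say little about either gene, since the setting called 20604 genes in that comparison. Endothelial centring moved Tek between the days to 0.21 (adjusted p = 0.215), and Tie1 (-0.24) and Ptprb (-0.22) in OIR. The filter as first run called 114 genes in OIR, against 115. Array weights called 12, the crossed block 215, endothelial centring 11605, only the 4 arrays compared 0, and leaving out 1 array 0 to 84. The stricter filter left Angpt1 untested, and a second cluster could not be tried because each gene has 1. The number of arrays and signals within the range of the negative controls limit all values.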
